A study of Homo sapiens with 18 samples.

Results

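The genes described here encode the proteins of the cytosolic ribosome. They were taken as every protein-coding gene of the deposited expression table whose symbol is RPL or RPS followed by a number, together with RPLP0, RPLP1, RPLP2 and RPSA. Pseudogenes, the RPS6K kinases, RPS27L, RPS4Y1 and RPS19BP1 were left out, which gave 88 genes of the 60504 rows. Of these, 55 belong to the large subunit and 33 to the small subunit. They comprise 77 standard ribosomal protein genes, 8 paralogues (RPL3L, RPL7L1, RPL10L, RPL22L1, RPL26L1, RPL36AL, RPL39L and RPS4Y2) and 3 readthrough genes that join a ribosomal protein gene to its neighbour. FAU, which encodes a ribosomal protein fused to a ubiquitin-like protein, and RACK1 fall outside the symbol rule and are given beside it.

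The study followed gene expression in A375, a human melanoma line with a mutated BRAF kinase, under IMD-0354, a compound that inhibits IKKβ, the kinase that activates NF-κB. Cells were left untreated or given 0.32, 0.63 or 1.25 µM for 24 h, and were left untreated or given 0.63 µM for 48 h. Each of the 6 groups held 3 libraries. All 18 libraries came from this line, and no other genotype or agent entered. The labels call the controls untreated and name no vehicle, and they do not say whether replicates were separate cultures, so each p-value reflects how far these libraries scattered, and that scatter may be technical.

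A ribosome is built from ribosomal RNA and about equimolar ribosomal proteins, so the mRNAs for these proteins are among the most abundant of a growing cell. Most of them begin with a C followed by an unbroken run of pyrimidines, the 5′ terminal oligopyrimidine (TOP) tract. LARP1 binds such tracts, and mTORC1 controls their stability and translation through it. Proliferating melanoma cells make many ribosomes, and the supply of ribosomal proteins is tied to growth signals and, through RPL5 and RPL11, to p53.

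Start sites of the members that the results turn on are shown first, because the tract at the start is the feature these mRNAs share. The sequences are from RefSeq (GRCh38.p14) and run 5′ to 3′ on the gene's strand. Each has 15 bases before the annotated start and 15 from it. Capitals mark the uninterrupted pyrimidine run that begins with a C at the start. RPLP0, RPL12 and RPLP1 form the stalk that recruits elongation factors. RPS6, RPS3 and RPS18 are small-subunit proteins, and RPL22L1 is the close relative of RPL22.

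RPLP0, chr12:120201097-120201126, minus strand: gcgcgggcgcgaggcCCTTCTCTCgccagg

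RPL12, chr9:127451392-127451421, minus strand: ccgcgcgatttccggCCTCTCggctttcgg

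RPLP1, chr15:69452803-69452832, plus strand: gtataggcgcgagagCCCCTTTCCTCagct

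RPS6, chr9:19380222-19380251, minus strand: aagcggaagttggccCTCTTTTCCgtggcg

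RPS3, chr11:75399503-75399532, plus strand: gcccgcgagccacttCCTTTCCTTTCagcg

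RPS18, chr6:33272060-33272089, plus strand: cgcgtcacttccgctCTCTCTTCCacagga

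RPL22L1, chr3:170870181-170870210, minus strand: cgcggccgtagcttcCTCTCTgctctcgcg

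The next 4 members also appear in the results below, and their annotated start carries no such run.

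RPS26, chr12:56041903-56041932, plus strand: gagacacataacctcgattttcttccgcca

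RPS28, chr19:8321481-8321510, plus strand: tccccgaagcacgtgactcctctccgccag

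RPL10A, chr6:35468386-35468415, plus strand: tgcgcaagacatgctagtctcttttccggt

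RPL7L1, chr6:42879601-42879630, plus strand: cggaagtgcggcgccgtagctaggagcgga

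RefSeq start sites were found for 70 of the 88 members. A C at the start followed by pyrimidines for at least 5 bases in all was present in 48 of the 70 (68.6%), against 1404 of 27305 symbols in the whole table (5.14%). The ETS-type string CCGGAAG, searched on both strands from 250 bases before to 50 bases after the start, was found in 23 members (32.9%) and in 12.2% of all symbols. The E-box CACGTG, searched the same way, was found in 5 members (7.14%) and in 8.77% of all symbols. A match of letters is a description of the sequence and no evidence of binding. These windows rest on annotated starts, and a start placed a base away changes whether a run is counted.

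The line was checked against markers before the members were read. AXL averaged 92.5 TPM, SOX10 19.1 TPM, MITF 11.3 TPM and NGFR 10.6 TPM over the 18 libraries, where TPM scales each library's transcript levels to a common total. The pigment genes MLANA, PMEL, TYR and DCT and the S100 genes S100A1 and S100B averaged under 1 TPM each. Leukocyte markers (PTPRC, CD3E and LYZ) and endothelial markers (PECAM1, VWF and CDH5) averaged at or near 0 TPM. Among keratinocyte and fibroblast markers, KRT10 averaged 50.5 TPM and PDGFRB 2.88 TPM, and the others were near 0. Between 14647 and 17029 genes were above 0 in a library.

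Replicate 2 of the untreated group at 24 h stood apart for these genes. Its level differed by more than 0.5 on the log2 scale from the mean of the other two replicates in 29 of the 83 measured members, against 0 to 16 members for the other 17 libraries. It held the highest value of all 18 libraries for 15 members and the lowest for 30. RPL26, which lines the polypeptide exit tunnel, read 13617 TPM there and 5620 and 5649 TPM in replicates 1 and 3. RPL28, a large-subunit protein, read 147 TPM there and 660 and 768 TPM in replicates 1 and 3. The summed level of the members did not stand apart in that library, which held 22.8% of its TPM in them against 21.1% and 22.9%. All 24 h comparisons with untreated cells share these 3 control libraries, so counts of members past the threshold in those comparisons are also given without replicate 2.

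Of the 88 members, 83 reached at least 1 TPM in at least 3 libraries and were tested, and 82 were above 0 in every library. The 5 that were not tested are RPL10L, RPS4Y2 and RPL36A-HNRNPH2, listed at 0 throughout, and RPL3L and RPS10-NUDT3, which averaged 0.124 and 0.177 TPM. RPL3L is known from muscle and RPL10L from testis. Levels were high and spread over a wide range: 78 members averaged at least 600 TPM. The highest were RPL41, the smallest ribosomal protein, at 11499 TPM, RPS6, the substrate of the S6 kinases, at 10991 TPM, the stalk protein RPLP1 at 9316 TPM, RPL26 at 7454 TPM and RPS28 at 7453 TPM. The lowest of the measured members were RPL39L at 12.8 TPM, RPL17-C18orf32 at 13.5 TPM, RPL7L1 at 41.7 TPM, RPL26L1 at 111 TPM and RPL36AL at 214 TPM, all paralogues or readthrough genes. TPM is divided by transcript length while these libraries count 3′ ends, so levels between genes can be ordered only roughly.

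Replicates agreed to within 0.5 on the log2 scale for most members in every group. The median absolute difference from the other replicates was 0.243, 0.413 and 0.215 in untreated replicates 1, 2 and 3 at 24 h. In the libraries of the other groups it was between 0.064 and 0.255. The spread within groups (SD on the log2 scale, pooled over the 6 groups) was among the smallest for RPL35A (0.075) and RPS20 (0.079). It was largest for RPL17-C18orf32 (1.52), RPL39L (0.58) and RPL28 (0.58). The readthrough gene RPL17-C18orf32 was listed at 0 in replicate 1 at 1.25 µM and at 24.9 and 17.9 TPM in the other two.

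Ribosomal protein mRNAs took a larger share of the transcriptome at the higher doses. In untreated cells at 24 h they held 21.1, 22.8 and 22.9% of all TPM in the 3 libraries. At 0.32 µM the shares were 21.02, 21.27 and 20.96%. At 0.63 µM they were 24.5, 22.6 and 27.8%. At 1.25 µM they were 26.2, 27.4 and 29.1%, above every untreated library. At 48 h untreated cells held 21.7, 20.9 and 22.5%, and cells at 0.63 µM held 25.5, 25.9 and 27.9%, again with no overlap. The group means were 22.3 ± 1.02% (SD, n = 3) untreated, 24.99 ± 2.63% at 0.63 µM and 27.6 ± 1.48% at 1.25 µM for 24 h, and 21.7 ± 0.830% and 26.4 ± 1.302% without and with 0.63 µM for 48 h. At 0.63 µM for 24 h replicate 2 lay below the highest untreated library, so those groups overlapped. In bulk RNA a larger share of these mRNAs and less of all other mRNA cannot be told apart, nor can a change in each cell and a change in which cells survived.

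**Figure D1:**
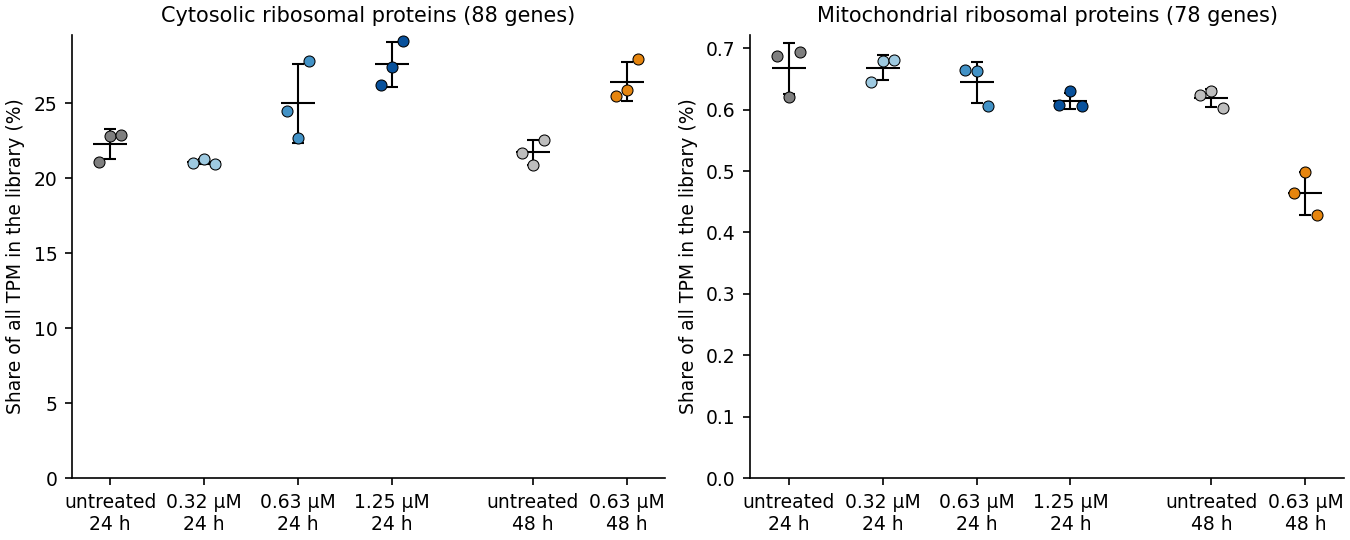
Share of each library's TPM (%, vertical axis) held by the 88 cytosolic ribosomal protein genes (left) and by 78 mitochondrial ribosomal protein genes (right) in the 6 groups; points are libraries, the horizontal dash is the mean and the bar the SD (n = 3). The cytosolic share stands at 26.2 to 29.1% at 1.25 µM against 21.1 to 22.9% in untreated cells at 24 h, while the mitochondrial share is lowest at 0.63 µM for 48 h.

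The large subunit's share was 12.8 ± 0.651% in untreated cells and 15.5 ± 0.816% at 1.25 µM for 24 h, and the small subunit's was 9.47 ± 0.403% and 12.1 ± 0.666% (SD, n = 3 each). The share did not rest on the 5 most abundant members: without them the other 83 members held 17.9 ± 0.805% and 22.3 ± 1.2997% in the same groups. The largest competing share was that of 4 entries annotated as long noncoding RNA on chromosome 21 (FP236383.2, FP236383.3, FP671120.3 and FP671120.4). FP236383.2, FP671120.3 and FP236383.3 had the same mean, 51031.7 TPM each, so these entries may share reads. Which RNA those reads came from was not tested. At 24 h the 4 entries held 18.1 ± 3.23% of TPM without the inhibitor, 14.2 ± 0.0854% with 0.63 µM and 15 ± 2.03% with 1.25 µM. At 48 h they held 23.5 ± 1.05% and 23.6 ± 1.11% without and with 0.63 µM. With these 4 removed and TPM rescaled, the member share was 27.2% in untreated cells and 32.5% at 1.25 µM for 24 h, and 28.4% and 34.6% without and with 0.63 µM for 48 h. The treated means lay above the untreated means with those transcripts taken out.

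At 0.32 µM for 24 h no member passed the test. The test was limma on log2(TPM + 1) over all 14936 genes with Benjamini-Hochberg adjustment, and a gene is said to have risen or fallen where its adjusted p was under 0.05. The count of 0 of 83 compares with 0.0268% of all genes tested (0.0067% higher and 0.0201% lower), and 3 members had an unadjusted p under 0.05, where 6.11% of all genes did. Without untreated replicate 2 the count was also 0 by limma, with 2 at an unadjusted p under 0.05. The median difference of the 83 members was -0.05 against 0.00 for all genes. Levels were higher than in untreated cells for 34 members and lower for 49, and in 6 members all treated libraries lay below all untreated ones, against 4.59% of all genes. No member lay wholly above, where 4.08% of all genes did.

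At 0.63 µM for 24 h 3 of 83 members rose and none fell, where 2.18% of all genes tested passed (1.36% higher and 0.824% lower). The members that rose were RPL23A, RPL22L1 and RPS28. The median difference over the 83 members was 0.20 on the log2 scale, against 0.00 over all genes, with 64 members higher and 19 lower. In 12 members every treated library lay above every untreated one, and in 3 every one lay below, where 10% and 9.26% of all genes did so. A total of 23 members had an unadjusted p under 0.05, where 17.9% of all genes did. After quantile normalization the median was 0.039, and 3 members rose and 1 fell. That method gives every library the same set of values. Among genes averaging at least 600 TPM, 78 are members and 124 are not. A joint rise of the members can thus be partly removed by the method, which cannot decide whether they rose together.

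RPL23A, which sits at the mouth of the peptide exit tunnel and takes part in docking the signal recognition particle, is at chr17:28719393-28724359 (GENCODE 29, GRCh38). It read 1395, 1590 and 1546 TPM in untreated cells and 2355, 2810 and 3493 TPM at 0.63 µM. At 1.25 µM it read 2696, 2807 and 2204 TPM. All 6 libraries of these doses lay above the untreated ones, and the doses overlapped each other. The difference was 0.92 (SE 0.14, adjusted p = 0.00297) at 0.63 µM and 0.76 (SE 0.14, adjusted p = 0.00205) at 1.25 µM.

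At 48 h RPL23A showed no difference beyond the spread. Untreated cells read 1735, 1547 and 1793 TPM and cells at 0.63 µM read 1787, 1641 and 1842 TPM, which overlap. The difference was 0.06 (SE 0.14, adjusted p = 0.879). The effect at 48 h minus that at 24 h was -0.86 (SE 0.19, unadjusted p = 0.000372, adjusted p = 0.0988), which did not pass, so a dependence on time was not established for this gene. Processed copies of RPL23A held 12.9% of its summed TPM, and reads of the gene and of such copies may have been split between them.

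RPL22L1, whose protein can take the place of RPL22 in the ribosome, is at chr3:170864875-170870483. It read 383, 410 and 561 TPM in untreated cells, 913, 898 and 906 TPM at 0.63 µM and 522, 543 and 757 TPM at 1.25 µM for 24 h. The 3 libraries at 0.63 µM lay above all others of that time, and those at 1.25 µM overlapped the untreated ones. The difference was 1.02 (SE 0.19, adjusted p = 0.0131) at 0.63 µM and 0.43 (SE 0.19, adjusted p = 0.164) at 1.25 µM. The test of 1.25 against 0.63 µM gave -0.60 (SE 0.19, adjusted p = 0.125), so the lower level at the higher dose was not established. At 48 h it read 475, 429 and 655 TPM without and 686, 775 and 804 TPM with the inhibitor, with no overlap and an adjusted p of 0.0854 by limma. The call at 0.63 µM for 24 h was lost without replicate 3 of that dose (adjusted p = 0.0630).

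RPS28, a small-subunit protein near the mRNA exit, lies at chr19:8321158-8323340. It read 6925, 4407 and 6924 TPM in untreated cells, 8999, 8413 and 9073 TPM at 0.63 µM and 9058, 8825 and 8989 TPM at 1.25 µM. No treated library of these doses overlapped an untreated one, and the second untreated replicate was the lowest of all. The difference was 0.57 (SE 0.13, adjusted p = 0.0396) at 0.63 µM and 0.59 (SE 0.13, adjusted p = 0.00954) at 1.25 µM. Without untreated replicate 2 these were 0.35 (SE 0.070, adjusted p = 0.0309) and 0.37 (SE 0.070, adjusted p = 0.00409). The call at 0.63 µM held in 3 of the 6 fits that left out a library and was lost without any one library of that dose, with a highest limma adjusted p of 0.144 over those fits.

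The count at 0.63 µM depended on single libraries. Leaving out untreated replicate 2 gave 3 members, leaving out untreated replicate 3 gave 8, and leaving out replicate 3 at 0.63 µM gave 1, RPL23A. A limma fit to the compared 6 libraries alone called 0 members, with 3 at an unadjusted p under 0.05.

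At 1.25 µM for 24 h 20 of 83 members rose and none fell, where 11.3% of all genes tested passed (4.94% higher and 6.36% lower). The median difference was 0.30, a 1.23-fold rise, against -0.01 over all genes, and 73 members were higher and 10 lower. In 43 members every treated library lay above every untreated one, and in 1 every one lay below, where 12.4% and 13.7% of all genes did so. After quantile normalization, with the limit given above, the median was 0.11 and 5 members rose. The largest rises were RPS18 (0.88), RPL23A (0.76), RPL30 (0.73), RPL37A (0.66), RPS16 (0.64), RPL10A (0.62), RPS3 (0.62) and RPS28 (0.59). Others that rose were RPL12, RPLP0, RPL13, RPL38, RPS21, RPS6, RPL19, RPL15, RPS14, RPL37 and RPS9. Both subunits were represented, with 11 of 52 large-subunit and 9 of 31 small-subunit members.

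**Figure D2:**
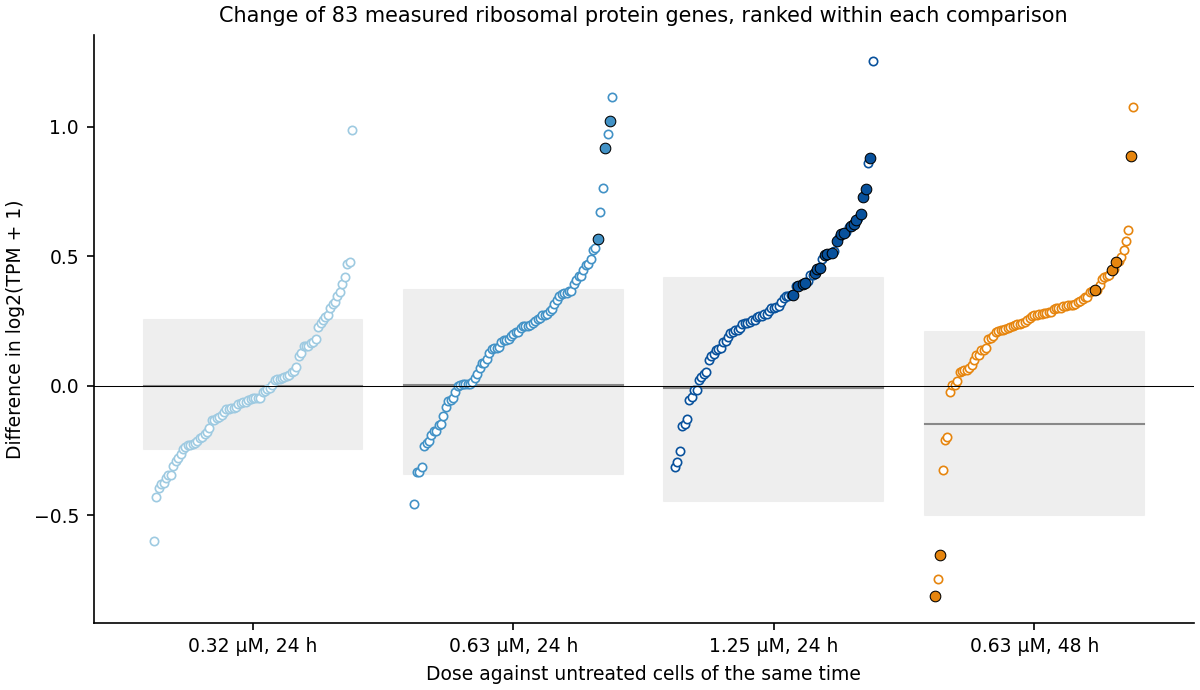
Difference in log2(TPM + 1) from untreated cells of the same time (vertical axis) for the 83 measured ribosomal protein genes, ranked within each of 4 comparisons; filled points passed limma with Benjamini-Hochberg adjustment at 0.05, the grey band is the interquartile range of all 14936 genes and the grey line is their median. The members centre on the all-gene median at 0.32 µM and lie mostly above it at 0.63 µM (median 0.20), at 1.25 µM (0.30) and at 0.63 µM for 48 h (0.27).

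Among the proteins of the stalk, RPLP0 is the scaffold that holds RPLP1 and RPLP2, and RPL12 sits at its base. RPLP0, at chr12:120196686-120201235, read 2513, 2992 and 2747 TPM in untreated cells and 2481, 2428 and 2436 TPM at 0.32 µM. It read 3408, 3143 and 4044 TPM at 0.63 µM and 3919, 3907 and 4299 TPM at 1.25 µM. The doses of 0.63 and 1.25 µM lay wholly above the untreated libraries, and 0.32 µM lay wholly below them. The differences were -0.16 (adjusted p = 0.874), 0.36 (adjusted p = 0.0890) and 0.56 (SE 0.11, adjusted p = 0.00300) in order of dose. RPL12 read 1285, 1078 and 1481 TPM untreated, 1657, 1551 and 2214 TPM at 0.63 µM and 1753, 1913 and 2075 TPM at 1.25 µM, and rose by 0.59 (SE 0.14, adjusted p = 0.0132) at 1.25 µM. That call was lost without replicate 3 at 1.25 µM (adjusted p = 0.0592). RPLP1 and RPLP2 did not pass at 1.25 µM, with differences of 0.27 (adjusted p = 0.203) and 0.40 (adjusted p = 0.0568). The stalk list thus had 2 of 4 members higher and a median of 0.48, where 20 of 83 members and 4.94% of all genes rose. With 4 genes, no difference of the stalk from the other members was established.

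Around the peptide exit, 3 of 8 members rose at 1.25 µM (RPL23A, RPL19 and RPL38), with a list median of 0.30. Of all members 20 of 83 rose, also with a median of 0.30, and of all genes 4.94% rose. The list was not tested against either. RPL26 of the same list, whose untreated replicate 2 stood apart, differed by 0.21 (adjusted p = 0.648), and by -0.08 after quantile normalization.

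On the small subunit, RPS3 lines the channel through which mRNA enters, and RPS18 lies in the head. RPS3 read 2800, 2124 and 2893 TPM in untreated cells and 3923, 3741 and 4231 TPM at 1.25 µM, without overlap, a rise of 0.62 (SE 0.14, adjusted p = 0.00945). At 0.63 µM it read 2823, 2689 and 3756 TPM, which overlapped the untreated libraries. RPS18, at chr6:33272010-33276510, read 2437, 1383 and 2860 TPM untreated and 3676, 3784 and 4302 TPM at 1.25 µM, a rise of 0.88 (SE 0.20, adjusted p = 0.00946). Its size depended on the low untreated replicate 2: without that library the rise was 0.57 (SE 0.13, adjusted p = 0.0146).

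RPS6 is phosphorylated by the S6 kinases and is a common readout of mTORC1 activity as a protein, which was not measured here. Its mRNA read 8535, 12361 and 9160 TPM untreated, 10795, 9579 and 12608 TPM at 0.63 µM and 13223, 13014 and 14475 TPM at 1.25 µM. The libraries at 1.25 µM were all above the untreated ones, and those at 0.63 µM overlapped the untreated ones. The rise at 1.25 µM was 0.46 (SE 0.13, adjusted p = 0.0289), and 0.62 (SE 0.10, adjusted p = 0.00132) without untreated replicate 2. It did not pass when any of the other 5 libraries of the comparison was left out, with a highest limma adjusted p of 0.111 over those fits.

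Several members did not pass at 1.25 µM. RPL5 and RPL11 carry 5S ribosomal RNA into the large subunit and, when free, bind the p53 ligase MDM2. RPL5 read 1021, 1288 and 1029 TPM untreated and 931, 1032 and 1035 TPM at 1.25 µM, a difference of -0.15 (adjusted p = 0.425). RPL11 read 1969, 2583 and 2063 TPM untreated and 2449, 2660 and 2806 TPM at 1.25 µM, a difference of 0.27 (adjusted p = 0.164) that became -0.01 after quantile normalization. Both pairs of groups overlapped. RPS4X, the X-linked small-subunit protein, differed by 0.28 (adjusted p = 0.241). RPL13A, known for silencing inflammatory mRNAs when released, differed by -0.02 (adjusted p = 0.975). RPL41, the most abundant member, differed by 0.14 (adjusted p = 0.599), with untreated libraries at 11297, 7282 and 12483 TPM and treated ones at 10249, 11089 and 12134 TPM. Neither the most abundant member nor the 5S pair passed at any dose.

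RPL28 showed the largest difference at 1.25 µM and did not pass. It read 660, 147 and 768 TPM untreated and 874, 1015 and 1141 TPM treated, a difference of 1.25 (SE 0.42, adjusted p = 0.0633). Without untreated replicate 2 the difference was 0.49 (SE 0.19, adjusted p = 0.130). RPL10, which joins the large subunit last, read 1177, 401 and 1202 TPM untreated and 1439, 1521 and 1554 TPM treated. Its difference was 0.86 (SE 0.28, adjusted p = 0.0543), and without that library it was smaller and passed, at 0.34 (SE 0.085, adjusted p = 0.0213).

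**Figure D3:**
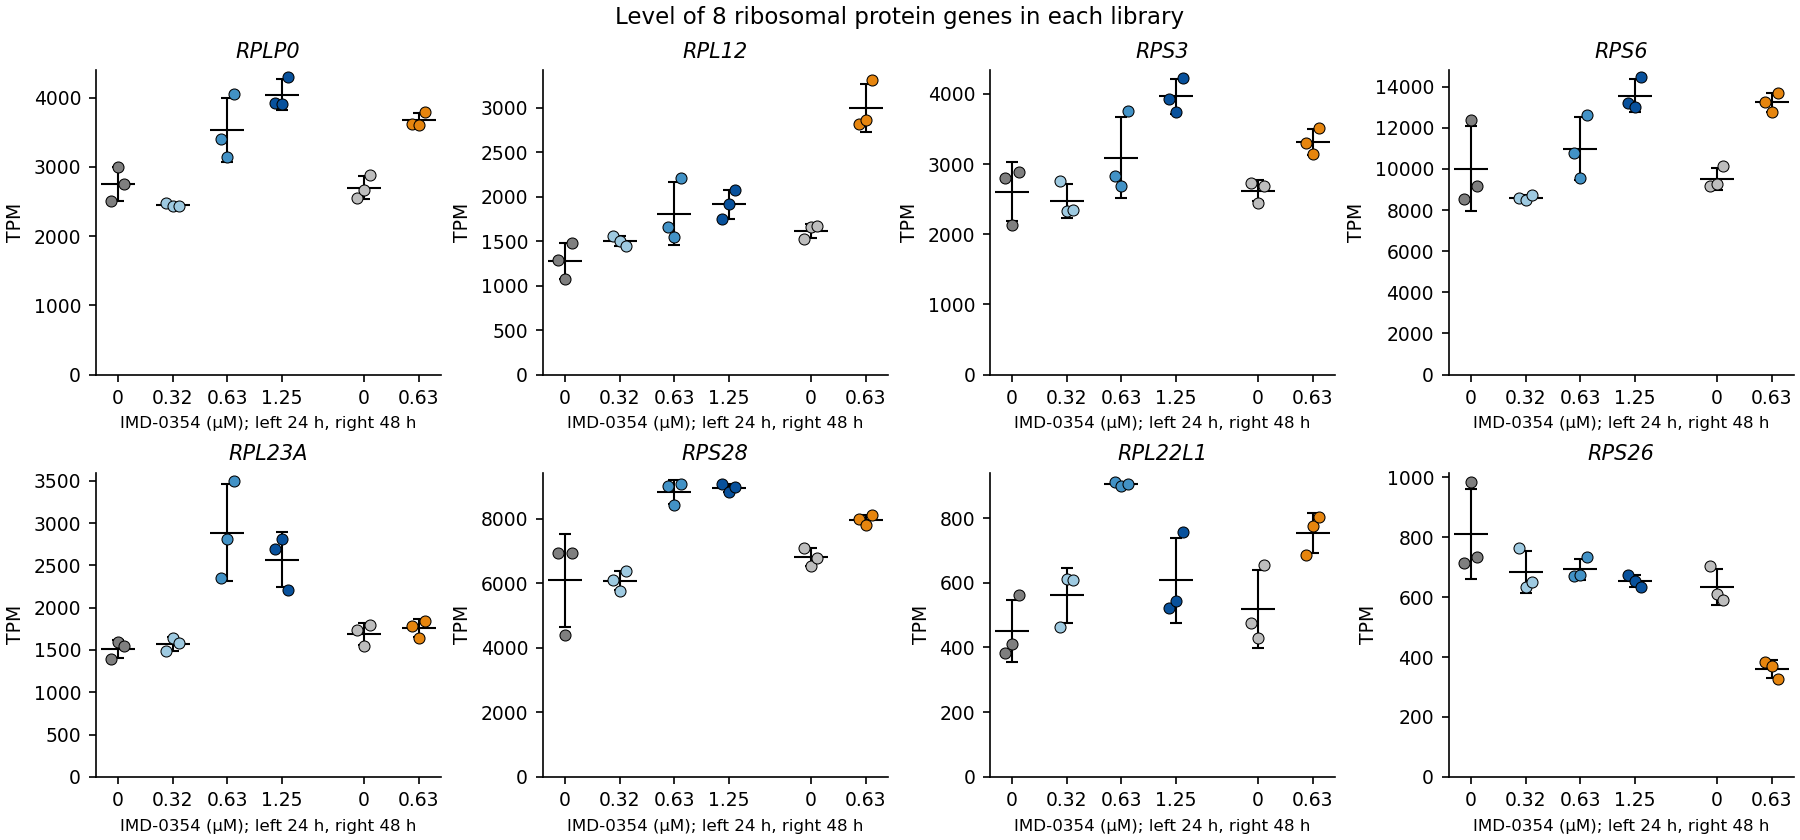
Level (TPM, vertical axis) of 8 ribosomal protein genes in each library against IMD-0354 dose (µM), 24 h on the left and 48 h on the right of each panel; points are libraries, the dash is the mean and the bar the SD (n = 3). RPLP0, RPS3 and RPS6 are highest at 1.25 µM among the 24 h groups, RPL23A and RPS28 are raised at 0.63 and 1.25 µM, RPL22L1 is highest at 0.63 µM, and RPL12 is highest and RPS26 lowest at 0.63 µM for 48 h.

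The count at 1.25 µM was 25 without untreated replicate 2, 9 without replicate 2 at 1.25 µM and 7 without replicate 3 at that dose. A total of 5 members passed in all 6 of the fits that left out a library (RPLP0, RPS3, RPL23A, RPS18 and RPS28). A limma fit to the compared 6 libraries alone called 0 members, with 18 at an unadjusted p under 0.05.

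A straight line over the 4 doses at 24 h rose in 31 of 83 members and fell in none, where 14.7% of all genes tested passed (6.68% rising and 7.99% falling). This slope uses the same libraries as the dose comparisons above and is no separate evidence. The median slope of the members was 0.29 per µM on the log2 scale against -0.01 over all genes. The steepest was RPL28 (1.01, SE 0.32, adjusted p = 0.0436), whose slope was 0.52 (adjusted p = 0.0260) without untreated replicate 2. It was followed by RPL23A (0.70), RPL30 (0.69), RPS18 (0.69), RPS3 (0.55), RPLP0 (0.54, SE 0.081, adjusted p = 0.000397), RPS28 (0.53) and RPL37A (0.51). Members that passed here and not at 1.25 µM alone include RPLP2 (0.31), RPS19 (0.31), RPS27A, which carries a ubiquitin in front of the ribosomal protein (0.32), and RPSA, also known as the laminin receptor (0.27). The count was 39 without untreated replicate 2, 17 without replicate 2 at 1.25 µM and 13 without replicate 3 at that dose, and 13 members passed in all 12 fits that left out a library.

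Between the doses of 1.25 and 0.63 µM at 24 h no member passed limma, where 1.51% of all genes did (0.469% higher and 1.04% lower), and 12 had an unadjusted p under 0.05, where 15.4% of all genes did. The median difference of the members was 0.14 against -0.02 over all genes. In 23 members all libraries at 1.25 µM lay above all at 0.63 µM, and in 1 member all lay below, where 8.94% and 11.1% of all genes did so. The 1 lower member was RPL22L1. Replicate 3 at 0.63 µM was the highest of its group for the summed share (27.8%), and leaving it out gave 0 members by limma, with 23 at an unadjusted p under 0.05. With untreated replicate 2 left out as well, a setting added after the data were seen, 11 members were higher. That library is in neither compared group. Leaving it out could change the spread and the genes tested, and not a gene's difference between the doses.

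At 48 h 0.63 µM raised 4 members (RPL12, RPS6, RPLP0 and RPL37) and lowered 2 (RPS26 and RPL7L1), where 7.63% of all genes tested passed (1.95% higher and 5.68% lower). The median difference was 0.27 over the 83 members and -0.15 over all genes, and 76 members were higher and 7 lower. In 58 members every treated library lay above every untreated one, where 9.23% of all genes did so, and in 4 every treated library lay below, where 21.3% of all genes did so. The 4 members that rose also rose at 1.25 µM for 24 h, which compared other libraries (4 of 4, and 4 of the 20 there). Both tests took each gene's spread from all 18 libraries, so they are not separate evidence.

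RPL12, at chr9:127447674-127451405, read 1525, 1660 and 1667 TPM in untreated cells and 2816, 2860 and 3309 TPM at 0.63 µM for 48 h. The groups did not overlap, and the treated libraries were the highest of all 18. The rise was 0.89 (SE 0.14, adjusted p = 0.00103). The effect at 48 h minus that at 24 h was 0.40 (SE 0.20, adjusted p = 0.446) and did not pass.

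RPLP0 read 2552, 2664 and 2883 TPM untreated and 3619, 3609 and 3797 TPM treated at 48 h, a rise of 0.45 (SE 0.11, adjusted p = 0.0156). RPS6 read 9147, 9264 and 10124 TPM untreated and 13280, 12771 and 13674 TPM treated, a rise of 0.48 (SE 0.13, adjusted p = 0.0292). RPL37, a zinc-binding large-subunit protein, read 2799, 2722 and 2913 TPM untreated and 3363, 3764 and 3774 TPM treated, a rise of 0.37 (SE 0.099, adjusted p = 0.0304). None of these 3 pairs of groups overlapped. RPLP0 passed in 3 of the 6 fits that left out a library, and RPS6 and RPL37 each passed in 1. The other two stalk proteins did not pass: RPLP1 differed by 0.37 (adjusted p = 0.1), and by -0.16 after quantile normalization, and RPLP2 by 0.21 (adjusted p = 0.384).

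RPS26 went the other way. Its protein lies beside the mRNA exit channel and contacts mRNA upstream of the start codon. The gene, at chr12:56041351-56044697, read 704, 610 and 592 TPM in untreated cells and 385, 371 and 327 TPM at 0.63 µM for 48 h, and these 3 treated libraries were the lowest of all 18. The fall was -0.81 (SE 0.13, adjusted p = 0.00130). At 24 h it read 715, 983 and 736 TPM untreated, 671, 675 and 733 TPM at 0.63 µM and 673, 654 and 634 TPM at 1.25 µM, with differences of -0.21 (adjusted p = 0.437) and -0.30 (adjusted p = 0.171). The difference between the 48 h and 24 h effects of 0.63 µM was -0.60 (SE 0.19, unadjusted p = 0.00562, adjusted p = 0.214) and did not pass. RPL12 and RPS26 passed at 48 h in all 6 fits that left out a library and in all 12 other settings of pseudocount, filter, scaling and model.

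RPL7L1, a relative of RPL7 linked to ribosome assembly, read 43.2, 50.6 and 42.3 TPM untreated and 30.5, 28.9 and 25.8 TPM treated at 48 h. The groups did not overlap. The fall was -0.66 (SE 0.19, adjusted p = 0.0472), and it passed in none of the 6 fits that left out a library. The remaining members below their untreated level at 48 h were RPL39L (-0.75), RPS15 (-0.33), RPL36AL (-0.21), RPL26L1 (-0.20) and RPL6 (-0.02), and none of these passed.

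**Figure D4:**
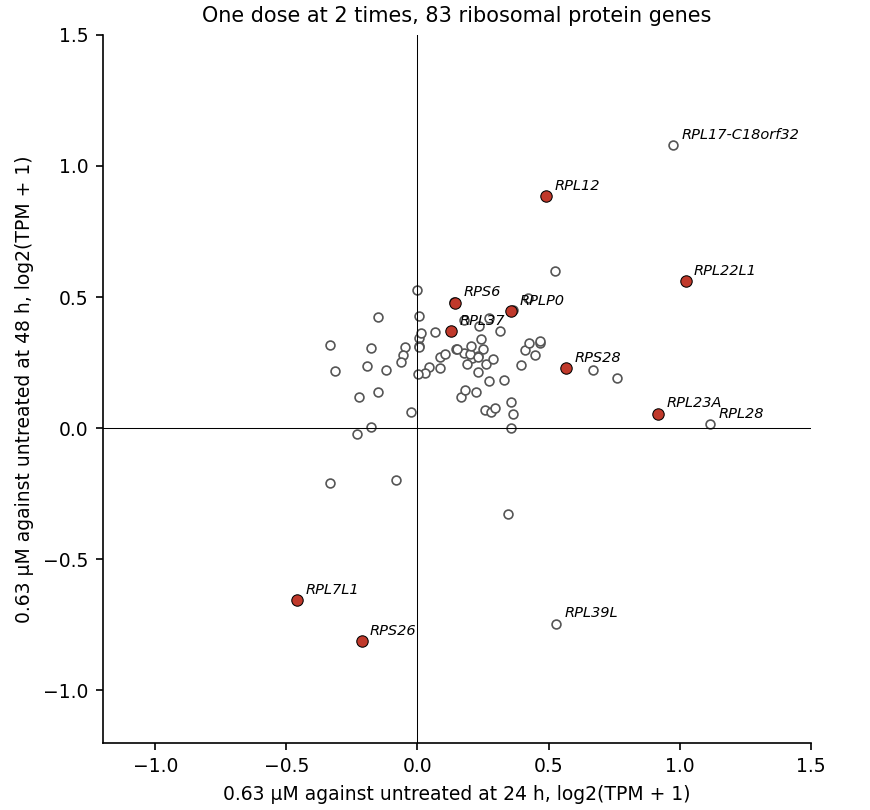
Difference in log2(TPM + 1) between 0.63 µM and untreated cells at 24 h (horizontal axis) and at 48 h (vertical axis) for 83 ribosomal protein genes; filled points passed limma with Benjamini-Hochberg adjustment at 0.05 at either time. Most points lie above 0 on both axes, RPL23A and RPL22L1 lie furthest right among the filled points, RPL12 lies high and RPS26 and RPL7L1 lie low.

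The all-gene median at 48 h was below 0, and scaling by median of ratios moved it from -0.15 to 0.00. Under that scaling 21 members rose and 1 fell, with a member median of 0.48, and over all genes 496 rose and 509 fell, against 291 and 849 in the deposited scale. After quantile normalization 2 members rose and 1 fell, with a member median of 0.07. The members' median lay above that of all genes under each scaling tried. Leaving out untreated replicate 1 or 2, or treated replicate 3, gave 2 members each, and leaving out treated replicate 2 gave 3. A limma fit to the compared 6 libraries alone called 17.

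The effect of 0.63 µM did not differ between 48 and 24 h for any member by the limma test of that difference, where 0.0335% of all genes passed (0.0134% higher and 0.0201% lower). A total of 9 members had an unadjusted p under 0.05, where 11.9% of all genes did. The median of this difference was 0.09 over the members and -0.17 over all genes. Between untreated cells at 48 and 24 h no member passed limma either, where 0.0134% of all genes did. There were 5 members at an unadjusted p under 0.05 (7.91% of all genes), and the median was -0.06 against -0.03. That count was 21 without untreated 24 h replicate 1, 2 without replicate 2 and 21 without replicate 3, so a difference was not established. In 1 member all 48 h libraries lay above all 24 h libraries and in 6 all lay below, where 4.87% and 7.65% of all genes did so.

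Paralogues were compared with their partner genes, since a swap of partners changes the make-up of ribosomes. RPL22L1 held 36.9 ± 8.23% of the summed TPM of RPL22 and RPL22L1 in untreated cells, 48.5 ± 4.19% at 0.32 µM, 59.4 ± 4.36% at 0.63 µM and 46.0 ± 1.55% at 1.25 µM for 24 h (SD, n = 3). At 48 h it held 46.1 ± 4.89% without and 52.1 ± 2.69% with 0.63 µM. RPL22 itself read 627, 1042 and 696 TPM untreated and 628, 510 and 740 TPM at 0.63 µM for 24 h, a difference of -0.31 (adjusted p = 0.376), with overlap. The 1042 TPM came from untreated replicate 2, the library that stood apart, and lowers the untreated mean share of 36.9%. This pair is uncertain, because the processed pseudogene RPL22P1 averaged 1322 TPM and pseudogenes held 66.5% of the summed RPL22 signal.

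RPL7L1 held 2.97 ± 0.536% of its pair with RPL7 in untreated cells and 1.79 ± 0.223% at 0.63 µM for 48 h. RPL7 itself read 1698, 1377 and 1429 TPM untreated and 1708, 1393 and 1595 TPM treated, which overlap. RPL26L1 held between 1.05 and 2.03% of its pair with RPL26 in the 6 groups, RPL36AL between 5.85 and 9.81% of its pair with RPL36A, and RPL39L between 0.234 and 0.486% of its pair with RPL39. RPS27L, left out of the members as a p53-responsive relative of RPS27, held 19.5 ± 1.53% of that pair without and 14.4 ± 1.39% with 0.63 µM at 48 h, and 23.3 ± 4.69% in untreated cells at 24 h. At 48 h RPS27L averaged 504 ± 49.3 TPM without and 489 ± 19.5 TPM with the inhibitor. RPS27 averaged 2084 ± 28.9 and 2917 ± 287 TPM in the same groups. Apart from RPL22L1 at 0.63 µM for 24 h and RPL7L1 at 48 h, no paralogue passed the test in any comparison with untreated cells.

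**Figure D5:**
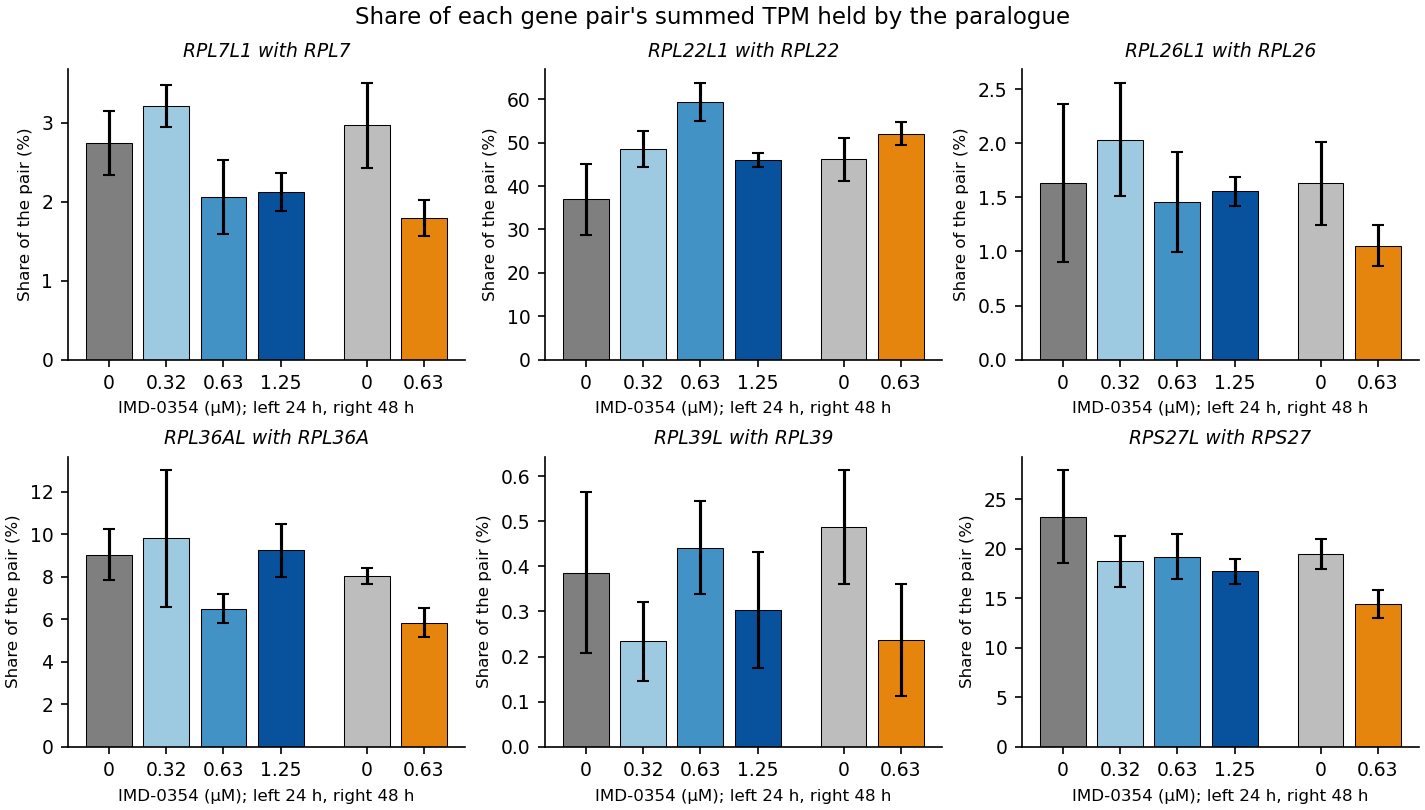
Share of a gene pair's summed TPM (%, vertical axis, from 0) held by the paralogue, for 6 pairs against IMD-0354 dose (µM), 24 h on the left and 48 h on the right; bars are means and error bars the SD (n = 3). RPL22L1 reaches 59.4% at 0.63 µM for 24 h from 36.9% in untreated cells, a mean lowered by untreated replicate 2. The other 5 paralogues hold smaller shares of their pairs in every group.

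The members that rose were also counted by the tract at their start site, with no test of the difference. At 1.25 µM 12 of 47 tested members with the tract rose, with a median of 0.34, and 4 of 20 without it rose, with a median of 0.26. At 48 h 3 of 47 with the tract rose and none fell, while none of 20 without it rose and 2 fell. The 2 that fell were RPS26 and RPL7L1, whose start sites are printed above. Over all genes 4.94% rose and 6.36% fell at 1.25 µM, and 1.95% rose and 5.68% fell at 48 h. With so few calls, no contrast between members with and without the tract was established.

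Among members that were called in several comparisons, patterns over the 6 group means were compared as a description, by Pearson r over 6 points that share untreated groups. Among the members most like RPLP0 were RPL11 (r = 0.987) and RPL9 (0.984). Among those most like RPL12 were RPS2 (0.931) and RPL3 (0.922). RPL23A was closest to RPS9 (0.973), RPL7A (0.960) and RPL28 (0.904). Among those most like RPL22L1 were RPL29 (0.897) and RPL3 (0.808).

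Abundance and length were set beside the members, since these mRNAs are short and abundant. Of 124 other genes with a mean of at least 600 TPM, 18 rose and 24 fell at 1.25 µM, with a median of 0.00, and 9 rose and 22 fell at 48 h, with a median of -0.12. The 78 members of that level had medians of 0.32 and 0.27. The 2305 other coding genes with a median transcript under 700 bases had medians of -0.02 and -0.19. At 0.63 µM for 24 h the abundant other genes had a median of 0.11 and the 78 members one of 0.20.

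Mitochondrial ribosomal proteins, which build the separate ribosome of mitochondria, were counted beside the cytosolic set. All 78 were tested. At 1.25 µM 2 rose and 5 fell, with a median of -0.06, where 4.94% of all genes rose and 6.36% fell. At 48 h none rose and 11 fell, with a median of -0.35, where 1.95% rose and 5.68% fell with a median of -0.15. MRPL33 showed the largest fall at 48 h, from 400.1 ± 85.8 to 182 ± 19.4 TPM (SD, n = 3), a difference of -1.12 (SE 0.19, adjusted p = 0.00186). Their summed share of TPM was 0.619 ± 0.0147% without and 0.464 ± 0.0355% with 0.63 µM at 48 h.

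Other parts of the translation machinery were read from lists of known genes, some of which share members. The counts stand beside all-gene shares of 4.94% higher and 6.36% lower at 1.25 µM, 1.95% and 5.68% at 48 h, and 1.36% and 0.824% at 0.63 µM for 24 h, and none was tested against them. Of 8 elongation factors, 3 rose at 1.25 µM: EEF1A1 (0.76, adjusted p = 0.0465), which delivers aminoacyl-tRNA, EEF1B2 (0.49), its exchange factor, and EEF2 (0.39), which drives translocation. At 48 h EEF2 (0.55) and EEF1B2 (0.37) rose. Of 18 other genes with TOP mRNAs, 5 rose and 2 fell at 1.25 µM, and 3 rose and none fell at 48 h. FAU, a ribosomal protein gene outside the symbol rule, read 2771 ± 373 TPM untreated and 3857 ± 92.3 TPM at 1.25 µM and rose by 0.49 (SE 0.10, adjusted p = 0.00619). RACK1 and RPS27L did not pass at any dose.

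Of 37 initiation factors 4 rose and 4 fell at 1.25 µM, with a median of -0.02, where 4.94% and 6.36% of all genes did. EIF1, which guards start-codon choice, averaged 499.5 ± 134 TPM untreated and 1173 ± 199 TPM treated, a rise of 1.25 (SE 0.18, adjusted p = 0.000419), and rose by 1.177 (SE 0.18) at 48 h. EIF4E, the cap-binding protein, fell by 1.23 on the log2 scale (SE 0.36, adjusted p = 0.0352), from 24.5 ± 9.07 to 10.4 ± 6.02 TPM. At 0.63 µM EIF4A2 (1.31) and EIF2S3 (0.73) rose. Of 4 termination and recycling factors, ABCE1 (-1.19) and GSPT1 (-0.77) fell at 1.25 µM.

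Of 17 measured genes of the mTORC1 and LARP1 list, which control TOP mRNAs, none rose and 2 fell at 1.25 µM (4.94% and 6.36% of all genes), EIF4E and LARP1 (-0.92, SE 0.23, adjusted p = 0.0174). LARP1 averaged 140 ± 41.8 TPM untreated and 71.4 ± 4.65 TPM at 1.25 µM. Among 16 chaperones and loading factors of ribosomal proteins none rose and 4 fell at 1.25 µM. These were GRWD1 (-1.83, SE 0.36, adjusted p = 0.00366), a chaperone of RPL3, BCCIP (-0.99), a chaperone of RPL23, MRTO4 (-0.78), which holds the place of RPLP0 during assembly, and LTV1 (-0.68), an assembly factor of the small subunit. At 0.63 µM PDCD2L (1.02) rose and BCCIP (-0.85) fell. GRWD1 averaged 35.0 ± 6.19 TPM untreated and 10.1 ± 5.46 TPM at 1.25 µM. At 48 h MRTO4 fell by 0.76 on the log2 scale and no other of this list passed.

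Members whose genes are mutated in Diamond-Blackfan anaemia, an inherited failure of red cell production, were counted as a clinical group. Of 18, RPS28 and RPL15 rose at 1.25 µM and none fell, where 4.94% of all genes rose and 6.36% fell. At 48 h none rose and RPS26 fell, where 1.95% and 5.68% of all genes did. RPS19, the gene most often affected, read 3104, 3915 and 3393 TPM untreated and 4358, 4332 and 4494 TPM at 1.25 µM, without overlap. It passed for the slope over dose (0.31, SE 0.084, adjusted p = 0.0199) and not at 1.25 µM alone.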

How the data were processed

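Total RNA of 18 A375 samples was read as 3′ tags (QuantSeq 3′ mRNA-Seq FWD). The authors deposited 1 table of TPM. The submitters' processing notes name cutadapt 1.18, STAR 2.7, RSEM 1.3.1 and DESeq2. Which build and annotation the authors used is not given in the sources used here. TPM keeps no depth, so sequencing depth is unknown and no counting interval is given. Division by transcript length was not undone.

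Gene symbols came from a name table and GENCODE 29 (GRCh38). The 14936 genes that reached 1 TPM in 3 or more libraries were tested as log2(TPM + 1), with limma 3.58.1 in R 4.3.3, 1 mean per group over all 18 libraries, a mean-variance trend, two-sided tests and Benjamini-Hochberg adjustment over all genes at 0.05. Fold changes on this scale understate the change of low genes. The fit was tested on simulated data.

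Members and lists were chosen with earlier results of these data known. Named were a set of 17 members, both genes of each measured paralogue pair, members past the threshold (the 8 largest changes where more than 16 passed), the 5 highest and 5 lowest by mean TPM, the 3 with the largest and the 3 with the smallest spread, and up to 4 genes of each other list. RPL28 at 1.25 µM, RPL26 and RPS15 were also named after their values were seen. The tract definition and motifs were set after start sequences had been seen (10 letter strings were tried first), as were the 600 TPM and 700 base classes and the 0.5 log2 deviation. Alternatives were other pseudocounts, filters, scalings, models and left-out libraries; 3 of them were added after the data were seen. Some genes that these rules select are not reported here.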

Additional observations from a re-analysis of the deposited data

How the results depend on the processing

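No member past the threshold changed direction under any alternative run. Values that had not passed were followed only for pairs of member and comparison that passed under some setting. Of these, 17 changed sign, most of them after quantile normalization. Sign changes in pairs that never passed were not counted. Counts of members past the threshold are given in the order 1.25 µM, 48 h and dose slope, where the main values were 20, 6 and 31. Without the filter they were 9, 2 and 18, without a mean-variance trend 4, 2 and 12, and after quantile normalization 5, 3 and 8. With a filter of 5 TPM 31 passed at 1.25 µM and 1 between 1.25 and 0.63 µM. Rescaling over genes that are not members gave 33 at 1.25 µM, and over all genes 955 higher and 786 lower against 738 and 950. Rescaling without the chromosome 21 transcripts gave 11 at 1.25 µM and 16 for the slope. Median-of-ratios scaling gave 22 at 48 h, and library weights gave 31 at 48 h and 2 for the difference between times. Fits to only the compared groups gave 0 at 0.63 µM, 0 at 1.25 µM, 17 at 48 h and 16 for the slope. The cause of these differences was not tested.

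Leaving out 1 library at a time gave 1 to 8 members at 0.63 µM, 7 to 30 at 1.25 µM, 2 to 5 at 48 h and 13 to 39 for the slope. With untreated 24 h replicates 2 and 3 both left out, an alternative added after the data were seen, limma called 0 at 0.63 µM (19 at an unadjusted p under 0.05) and 13 at 1.25 µM. With 0.63 µM replicate 3 and untreated replicate 2 both left out, also added, it called 1 at 0.63 µM, 32 at 1.25 µM and 11 between those doses.

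Member medians moved under median-of-ratios scaling to 0.48 at 48 h and 0.31 for the difference between times. After quantile normalization they were 0.039 at 0.63 µM, 0.11 at 1.25 µM, 0.068 at 48 h and 0.12 for the slope, and the slope was 0.38 after rescaling over other genes. Member levels on the other scales were summed and written as a percentage of the deposited total. These scales did not reset each library's total, so the sums are not shares of a library. Dividing a whole library by a factor leaves its member share as it was. Under median-of-ratios scaling the sums were 20.9% untreated at 24 h, 19.9% at 0.32 µM and 30.1% at 0.63 µM for 48 h. After quantile normalization they were 23.4% untreated, 22.2% at 0.32 µM and 24.8% at 1.25 µM for 24 h, and 24.3% untreated at 48 h. Rescaling over other genes gave a sum of 20.3% at 0.32 µM. Without the chromosome 21 transcripts, where totals were reset, the member shares were 27.2, 26.2, 29.1, 32.5, 28.4 and 34.6%, in order of time and dose.

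Whether replicate numbers pair the samples was not settled. The correlation of deviations between same-numbered libraries had a median of 0.026 over 45 pairs, and 1 pair was over 0.1. Between libraries of other numbers the median was -0.017 over 90 pairs, and 2 pairs were over 0.1. Replicate 3 held the lowest share of mitochondrial DNA transcripts in every group. It also held the highest member share in every group but 0.32 µM. A shared culture or batch behind the numbers was not tested. A fit with the replicate block called 11 at 48 h and 1 between 1.25 and 0.63 µM. Depth is unknown, which limits what can be said of the low members.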
